A study of Mus musculus with 56 samples.

Results

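Loss of Odc and loss of Dohh were compared by how far each changed gene expression in regulatory T cell (Treg) cultures, and the genes described are those for which the size or the direction of the change differed between the 2 deletions. Of the 55 libraries with a count column, 14 were Treg libraries. CD4+ T cells (naive CD4+ T cells in the study's methods) had been isolated by negative selection, which removes other cells by their surface markers, from spleen and lymph node of C57BL/6 mice and cultured for 4 days under conditions that induce the TH1, TH2, TH17 or Treg subset. Every culture was stimulated through anti-CD3 (5 µg/mL) and anti-CD28 (2 µg/mL) with IL-2 at 100 U/mL. For Treg, TGF-β and further IL-2 were each given at 10 ng/mL, and antibodies blocking IFN-γ and IL-4 at 4 µg/mL each. The Treg libraries fell into 4 groups. Odc flox/flox mice with CD4-Cre (labelled Odc-/-, 4 libraries) had Cre-negative littermates as wild type (Odc WT, 4 libraries), and Dohh flox/flox mice with CD4-Cre (labelled Dohh-/-, 3 libraries) had their own wild type (Dohh WT, 3 libraries). CD4-Cre acts in developing thymocytes, so it also deletes in cells that become CD8+ T cells, and the cultures are cells induced in vitro rather than Treg taken from a tissue. The 2 deletions were deposited in separate count tables, so deletion and table cannot be told apart. Each effect was therefore taken against the WT of its own table. Called differences between the WT groups (Dohh table minus Odc table) are given for the genes whose values are described under Results. For some genes named only under the results flagged for a closer look, they are not given.

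Ornithine decarboxylase (ODC, gene Odc1) makes putrescine, the first polyamine, which is converted to spermidine and spermine. Spermidine supplies the group that deoxyhypusine synthase (DHPS) transfers to 1 lysine of the translation factor eIF5A, and deoxyhypusine hydroxylase (DOHH) completes hypusine on that lysine. DOHH thus acts downstream of ODC on a single branch of polyamine use, while loss of ODC also removes polyamines from their other uses. The comparison asks which genes respond to 1 of these losses and not in the same way to the other.

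The Odc effect is the log2 fold change of labelled Odc-/- against WT, the Dohh effect that of labelled Dohh-/- against WT, and the difference is the Dohh effect minus the Odc effect, each given ± its standard error. Levels are CPM, the counts scaled to the library's total over the tested genes and to its TMM factor. A gene was called where the change exceeded 2-fold and the adjusted p of edgeR's quasi-likelihood test was below 0.05. Of 12924 genes expressed in both tables, 2261 had a called difference (17.5% of genes tested). The Dohh effect was the higher in 1059 genes (8.19%) and the lower in 1202 (9.3%). The Dohh effect itself was called in 33.2% of genes and the Odc effect in 23.4%. Of 1990 genes called in both, 1870 moved in the same direction and 120 in opposite directions (0.929% of genes tested). The labels do not say whether replicates were separate mice, so p-values measure the spread between these libraries.

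The 120 opposed genes were unevenly divided, with 19 that rose in labelled Dohh-/- and fell in labelled Odc-/- and 101 that fell in labelled Dohh-/- and rose in labelled Odc-/-. The largest class of differing genes, 1034, was called with Dohh loss alone. A further 391 genes were called with Odc loss alone, 273 were called in both with the larger change after Dohh loss, 29 were called in both with the larger change after Odc loss, and 414 were called in neither deletion alone. A gene without a call is not shown to be unchanged, since differences not far above 2-fold were often missed in simulated data. Across all genes the 2 effects had a Pearson r of 0.667 and a Spearman rho of 0.606, as a description over genes that are not independent. With each Treg library left out in turn, 967 to 1273 genes were higher, 1046 to 1178 lower and 104 to 135 opposed. WT levels differed between the tables in 15.1% of genes tested and in 767 of the 2261 differing genes. Among genes without such a WT difference, 653 were higher, 841 lower and 50 opposed.

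**Figure D1:**
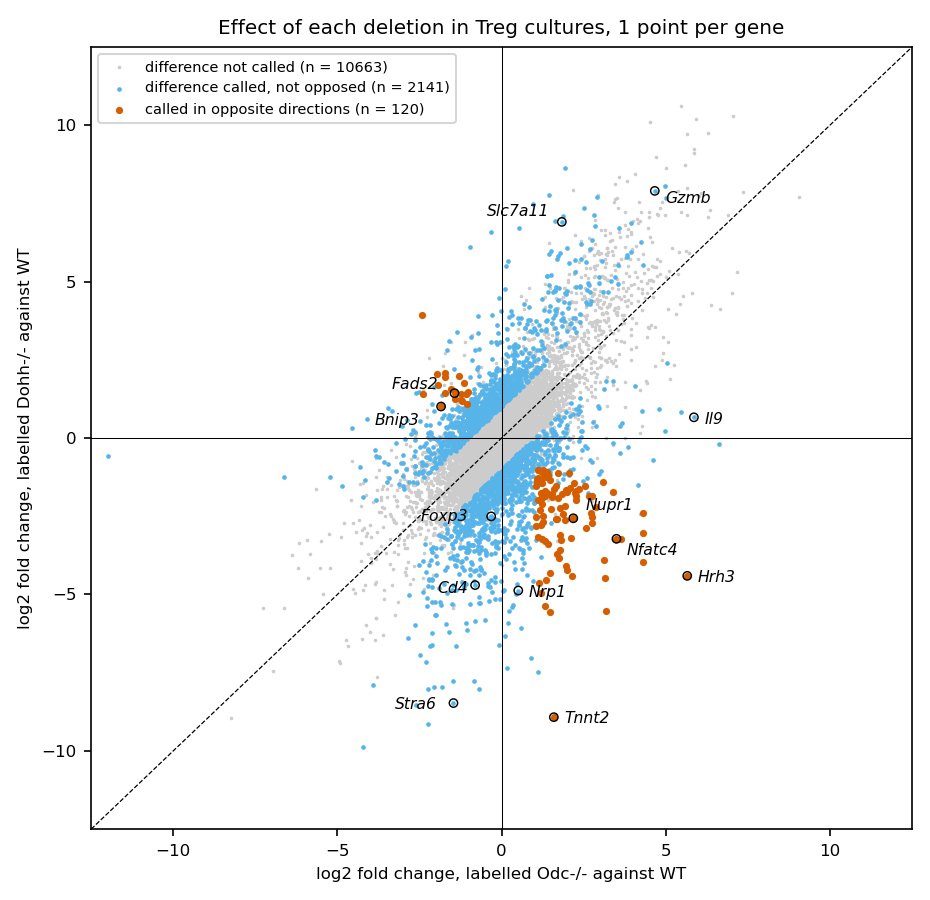
Each point is 1 of 12924 genes, with the log2 fold change of labelled Odc-/- Treg against WT on the x axis and of labelled Dohh-/- Treg against WT on the y axis. The 120 opposed genes (orange) lie at the upper left (19 genes) and the lower right (101 genes), and genes far from the dashed diagonal, where the effects are equal, include the other 2141 with a called difference (blue).

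The 14 Treg libraries held 7430483 to 12576933 counts. Mitochondrial genes took 1.84% to 2.86% of the counts in labelled Odc-/- and 0.778% to 1.47% in the other 3 groups. Foxp3, the transcription factor that defines Treg, read 398 to 618 CPM in Odc WT libraries and 590 to 624 CPM in Dohh WT libraries. The CD3 subunit gene Cd3e had group means of 227.1 to 246.6 CPM in all 4 groups, while the T cell receptor chain gene Trac, described below, was lower with each deletion. In this bulk RNA, fewer cells of a type and less RNA per cell cannot be told apart.

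The deleted genes did not read lower in the libraries labelled as deleted. Odc1 read 364, 404, 381 and 477 CPM in WT and 453, 428, 468 and 414 CPM in labelled Odc-/-. Dohh read 33.5, 44.3 and 42.7 CPM in WT and 81.0, 80.9 and 95.7 CPM in labelled Dohh-/-, a Dohh effect of 1.10 ± 0.24. Both counts cover the whole gene, whereas the floxed exons are 9 to 11 of Odc1 (22.2% of a 12-exon transcript) and 2 to 4 of Dohh (44.8% of a 5-exon transcript), and 47.46% of Dohh's exon length overlaps another gene. The deleted exons are not counted apart, so these values do not check the labels. Dohh also rose in labelled Odc-/- (1.03 ± 0.21), and its difference was 0.07 ± 0.31.

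No member of the hypusine pathway had a called difference. Eif5a, which encodes the protein that carries hypusine, read 576, 767, 571 and 1184 CPM in the WT of the Odc table and 1612, 1506, 1960 and 1454 CPM in labelled Odc-/-. It read 613, 769 and 653 CPM in the other WT and 1883, 2088 and 2449 CPM in labelled Dohh-/-. No KO library overlapped its WT, and the difference of effects was 0.58 ± 0.28 (adjusted p = 0.111, edgeR). Dhps had a difference of -0.06 ± 0.23. Leaving out Dohh WT replicate 1, Odc-/- replicate 2, or Odc WT replicate 1 or 3 brought 1 of the 4 hypusine genes past the threshold. Of the 27 polyamine metabolism genes tested, 2 were higher and 2 lower. Of these, Azin2, an activator of ODC, kept its call with each Treg library left out and had a difference of -1.46 ± 0.35. The counts of 2 higher and 2 lower became 1 each without Dohh-/- replicate 1 or 3 or without Dohh WT replicate 1, 1 higher without Dohh WT replicate 3 or Odc-/- replicate 2, 1 lower without Dohh WT replicate 2, Odc-/- replicate 1 or 4 or Odc WT replicate 1, and 1 each without Odc WT replicate 2.

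Among opposed genes that were higher with Dohh loss, Fads2 and Bnip3 were read at high levels. Fads2, a fatty acid desaturase, read 84.1, 91.5, 83.0 and 93.1 CPM in WT and 53, 20.1, 35.7 and 21.6 CPM in labelled Odc-/-, against 32.3, 42.0 and 36.7 CPM in WT and 117, 106 and 76.0 CPM in labelled Dohh-/-. The groups did not overlap in either table, and the difference was 2.87 ± 0.40. Bnip3, a gene induced by hypoxia, read 321, 360, 309 and 243 CPM in WT and 142, 37.8, 112 and 52.6 CPM in labelled Odc-/-. It read 121, 114 and 101 CPM in WT and 278, 207 and 191 CPM in labelled Dohh-/-, with a difference of 2.85 ± 0.48. The WT of the Dohh table differed from the WT of the Odc table by -1.25 log2 for Fads2 and -1.46 log2 for Bnip3, and for both genes labelled Dohh-/- overlapped the WT of the Odc table. Of Bnip3's exon length 22.25% overlaps another gene.

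Other opposed genes of this direction had lower counts. Gpt2, an alanine aminotransferase, read 7.12, 11.4, 7.82 and 25.3 CPM in WT, 9.68, 4.74, 4.80 and 4.39 CPM in labelled Odc-/-, 6.49, 6.49 and 8.03 CPM in WT of the Dohh table and 33.7, 22.3 and 15.7 CPM in labelled Dohh-/-, with a difference of 2.90 ± 0.50. The endoribonuclease gene Endou (3.67 ± 0.74), the iron regulator Hfe (3.16 ± 0.89), the transglutaminase Tgm1 (3.11 ± 0.71) and the semaphorin Sema6b (2.63 ± 0.58) did not exceed 16 CPM in any library. WT levels were called lower in the Dohh table for Endou (-1.91 log2) and Tgm1 (-1.30 log2).

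Of the 101 opposed genes that were lower with Dohh loss, 43 had a mean below 1 CPM in labelled Dohh-/-. The genes described here were named for the largest differences and are all among those 43. Tnnt2, a cardiac troponin T gene, read 3.45, 4.37, 2.57 and 7.10 CPM in WT and 8.68, 15, 13.0 and 16.1 CPM in labelled Odc-/-. It read 5.84, 9.09 and 6.31 CPM in WT and had 0 counts in all 3 labelled Dohh-/- libraries, which is at least 63.5-fold lower against a floor of 3 counts over the group. Each labelled Odc-/- library lay above its WT, and the WT groups of the tables did not have a called difference (0.69 log2). Fitted differences of genes with a group at 0 depend on a prior count and are no bound.

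Hrh3, a histamine receptor, read 0.755, 1.35, 0.817 and 0.789 CPM in WT and 15.6, 85.4, 30.6 and 59.0 CPM in labelled Odc-/-. It read 3.04, 8.70 and 7.40 CPM in WT and 0.114, 0.615 and 0.106 CPM in labelled Dohh-/-, for a difference of -10.06 ± 1.13, and its WT levels were 2.74 log2 higher in the Dohh table. Pigr, the receptor that carries polymeric immunoglobulin across epithelium, read 1.94, 3.64, 2.69 and 3.95 CPM in WT and 23.1, 26.9, 24.9 and 33.9 CPM in labelled Odc-/-, and it read 2.48, 4.03 and 4.06 CPM in WT and 0, 0.205 and 0.211 CPM in labelled Dohh-/-. The WT levels of Pigr were alike in both tables (0.20 log2, adjusted p = 0.78, edgeR), and the difference was -7.63 ± 0.90. In these genes each deletion moved every library outside the range of its own WT.

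Nfatc4, a calcium-regulated transcription factor, rose from 1.19, 0.936, 1.52 and 5.75 CPM to 10.2, 41.4, 25.6 and 29.0 CPM in labelled Odc-/- and fell from 1.92, 2.08 and 2.34 CPM to 0, 0.102 and 0.528 CPM in labelled Dohh-/-. The difference was -6.72 ± 0.95, with similar WT levels (-0.14). Plekhd1 had a difference of -7.04 ± 0.78, with WT levels 1.67 log2 higher in the Dohh table. A further 3 named genes had 1 or 2 counts in all of labelled Dohh-/-, and their WT to labelled Dohh-/- ratios carry wide 95% counting intervals: 55.0 for Ttyh1 (14.9 to 460), 18.8 for Gpr153 (4.89 to 160) and 20.6 for Ckmt1, a mitochondrial creatine kinase (3.34 to 848). WT levels of Ttyh1 and Gpr153 were 2.81 and 2.21 log2 higher in the Dohh table.

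**Figure D2:**
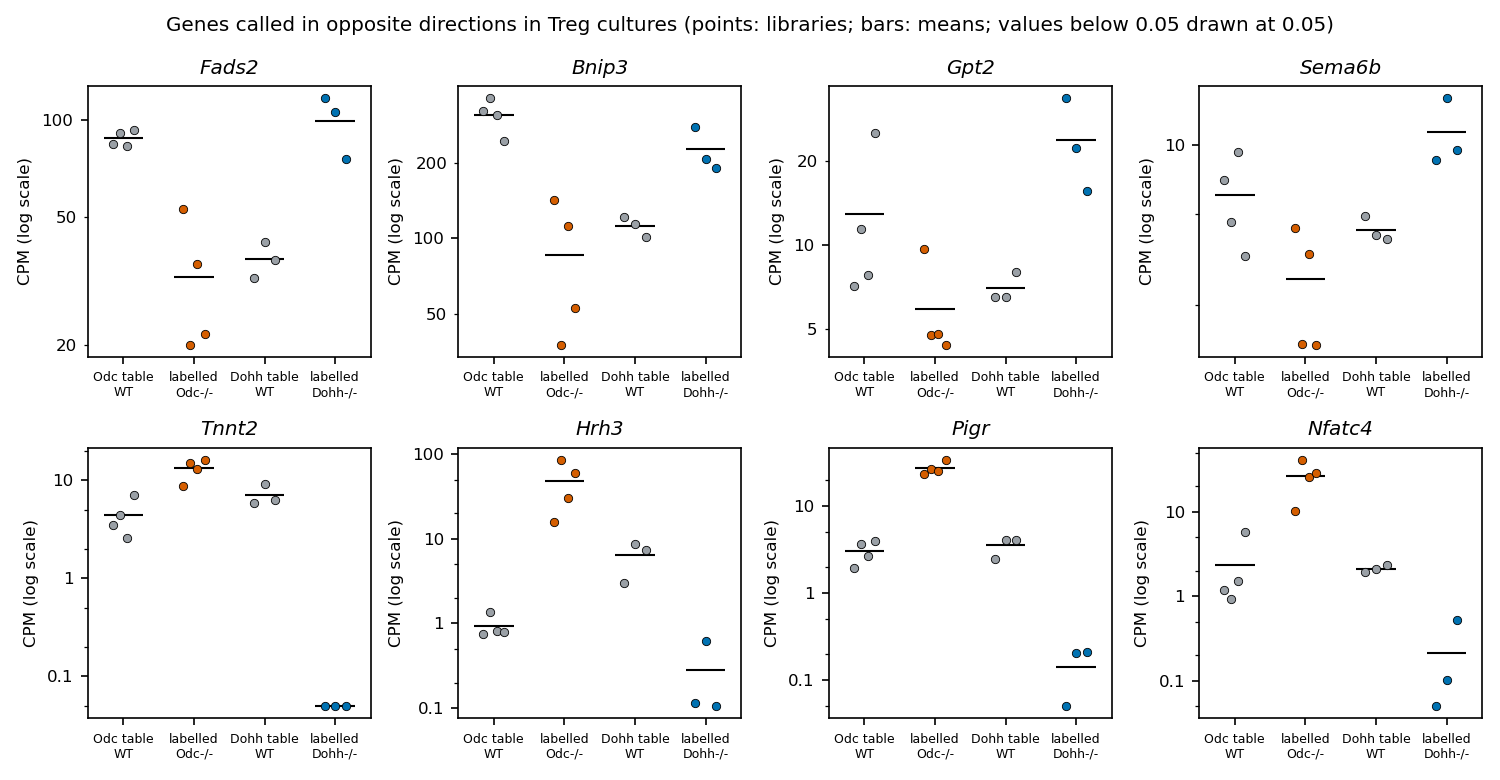
CPM on a log scale of 8 genes called in opposite directions in Treg, with 1 point per library and bars at group means; values below 0.05 CPM are drawn at 0.05. In the upper row the labelled Odc-/- mean lies below its WT and the labelled Dohh-/- mean above its WT, and the lower row shows the reverse, with Tnnt2 at 0 counts in all 3 labelled Dohh-/- libraries.

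Named genes that differed without being opposed were led by Ly6i, Cd14, Mmp19, Il1b, Slc7a11 and March1. Slc7a11, the cystine transporter, read 2.16, 0.832, 0.934 and 1.01 CPM in WT, 3.97, 4.51, 6.40 and 2.93 CPM in labelled Odc-/-, 0.240, 0.130 and 0.0902 CPM in WT of the Dohh table and 3.66, 16.6 and 42.3 CPM in labelled Dohh-/-. It rose in both deletions, by 1.83 ± 0.62 and 6.91 ± 0.91, and the difference was 5.08 ± 1.17, with WT levels 2.85 log2 lower in the Dohh table (-2.85). March1, a ubiquitin ligase gene, had no count in any of the 3 Dohh WT libraries and read 1.14, 5.74 and 10.4 CPM in labelled Dohh-/-, at least 61.1-fold higher. It read 0.971, 0.312, 1.40 and 0.564 CPM in the WT of the Odc table, and the WT groups were called different. Il1b, an inflammatory cytokine, read 10.9, 44.5 and 121 CPM in labelled Dohh-/- against 0.721, 0.260 and 0.180 CPM in WT, with a difference of 5.25 ± 1.24. In the Odc table Il1b read 2.81, 1.14, 2.22 and 0.902 CPM in WT and 8.31, 2.14, 13.4 and 2.07 CPM in labelled Odc-/-. Cd14, the lipopolysaccharide co-receptor of monocytes, had a difference of 6.2 ± 1.10, the metalloproteinase Mmp19, with 28.33% of its exon length shared with another gene, 5.45 ± 1.18, and Ly6i, whose reads could be shared with other Ly6 genes, 6.32 ± 1.48. Labelled Odc-/- overlapped its WT for Cd14 (0.854 to 3.69 and 0.728 to 2.10 CPM), Mmp19 (0.790 to 5.29 and 0.564 to 4.20 CPM) and Ly6i (1.10 to 4.31 and 0.104 to 1.29 CPM). The Dohh WT libraries did not exceed 0.721, 1.60 and 0.320 CPM for Cd14, Mmp19 and Ly6i. Replicate 1 of labelled Dohh-/- was the lowest of its group for each of these 6 genes.

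The lower side was led by genes at or near 0 in labelled Dohh-/-, with smaller Odc effects. Stra6, the retinol-binding protein receptor, read 53.3, 43.3, 54.4 and 39.7 CPM in WT and 36.0, 5.76, 15.4 and 12.1 CPM in labelled Odc-/-, and 77.8, 84.9 and 81.0 CPM in WT against 0.229, 0.410 and 0 CPM in labelled Dohh-/-. Both effects were downward, -1.47 ± 0.36 and -8.47 ± 0.69, with a difference of -7.01 ± 0.81. Tmie, a gene of inner ear hair cells, read 34.6, 37.1 and 35.2 CPM in WT and 0.343, 0.615 and 0.317 CPM in labelled Dohh-/-, whereas its Odc effect was 0.09 ± 0.27. Fermt1, an integrin activator, had 3 counts in labelled Dohh-/- and a ratio of 203 (95% counting interval 69.3 to 989). Notch3 and Ccdc33 had 0 counts there, at least 31.0-fold and 76.1-fold lower than WT. 4930452B06Rik had 1 count, for a ratio of 139 (24.5 to 5510). WT levels were higher in the Dohh table for Tmie (1.92 log2), Fermt1 (1.70 log2) and Ccdc33 (1.65 log2).

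The lists below hold genes of pathways, T cell programs and cell types, chosen with earlier results of these data known. The counts are of tested members, to be read against the 17.5% of all genes. The differences of list genes were taken on the log2 scale, and the median of all genes was 0.034.

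**Figure D3:**
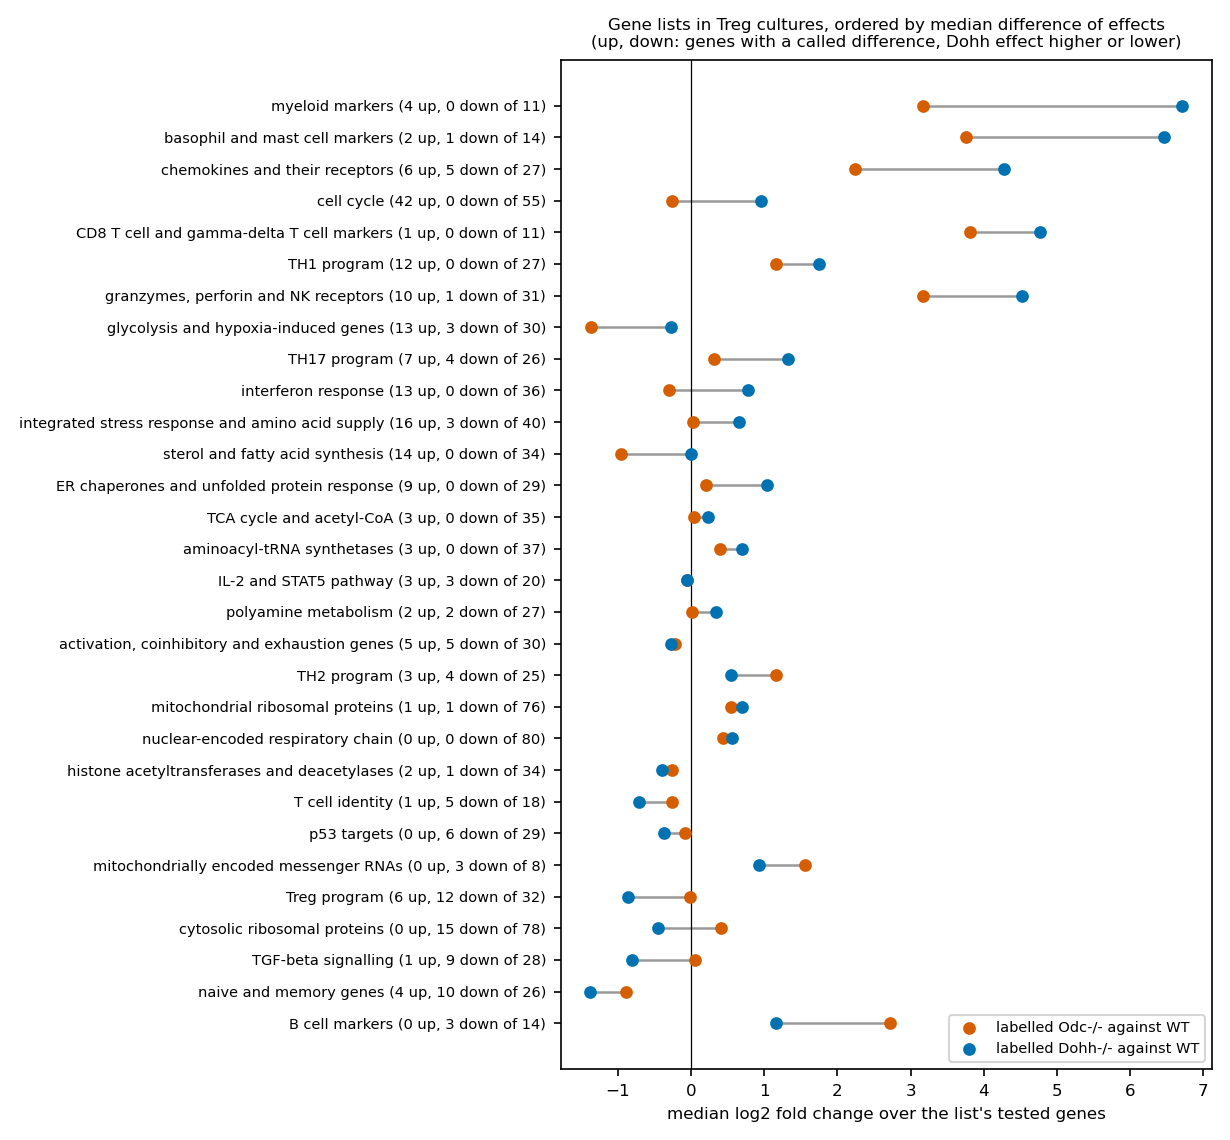
Median log2 fold change over the tested genes of each list in labelled Odc-/- (orange) and labelled Dohh-/- (blue) Treg against WT, with the number of called differences beside each list's name. The points lie on opposite sides of 0 for cell cycle (-0.259 and 0.961), interferon response (-0.308 and 0.776), cytosolic ribosomal proteins (0.412 and -0.452) and TGF-beta signalling (0.055 and -0.815).

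Foxp3 fell with Dohh loss, and its Odc effect was not called. It read 418, 474, 398 and 618 CPM in WT and 371, 381, 296 and 484 CPM in labelled Odc-/-, which overlapped. It read 590, 624 and 623 CPM in WT and 79.5, 181 and 63.2 CPM in labelled Dohh-/-, all below WT. The Odc effect was -0.32 ± 0.33, the Dohh effect -2.50 ± 0.40 and the difference -2.19 ± 0.51 (adjusted p = 8.86e-04), with 31.53% of its exon length shared with another gene. In the Treg program list 6 genes were higher and 12 lower of 32 tested, with medians of -0.011 and -0.858 for the Odc and Dohh effects.

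Surface receptors of that list were among the largest differences. Nrp1, neuropilin-1, read 90.6, 132, 77.3 and 153 CPM in WT and 168, 164, 106 and 206 CPM in labelled Odc-/-, and 127, 118 and 158 CPM in WT against 2.63, 7.17 and 3.80 CPM in labelled Dohh-/-. Its difference was -5.38 ± 0.54. Gpr83, a receptor expressed in Treg, was opposed: it read 30.9, 36.0, 30.0 and 57.6 CPM in WT and 142, 86.6, 73.8 and 110 CPM in labelled Odc-/-, and 19.9, 19.7 and 23.9 CPM in WT against 1.26, 2.97 and 1.69 CPM in labelled Dohh-/-, with a difference of -4.82 ± 0.47. The chemokine receptor Ccr8 had a difference of -3.74 ± 0.37, and Plagl1, a zinc finger protein, -4.21 ± 0.69. Members that were higher included Gzmb, Il10, Prdm1 and Icos. Of the 28 TGF-β signalling genes, 9 were lower and 1, Ltbp3, was higher, and Ltbp3 kept its call with 3 of the 14 Treg libraries left out in turn. Smad6, an inhibitor of this signalling, read 2.23, 6.21, 4.55 and 7.08 CPM in labelled Odc-/- against 1.29, 1.25, 0.701 and 1.35 CPM in WT, and 0.457, 1.02 and 1.06 CPM in labelled Dohh-/- against 7.77, 7.53 and 8.39 CPM in WT, a difference of -5.30 ± 0.61 with WT levels 2.76 log2 higher in the Dohh table. The receptor Tgfbr1 (-2.22 ± 0.40) and the ligase Smurf1 (-1.84 ± 0.21) also had lower Dohh effects, and WT levels of Tgfbr1 were lower in the Dohh table (-1.13 log2).

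Of the IL-2 and STAT5 genes, 3 were higher (5 without Odc-/- replicate 1) and 3 lower of 20, and among these Stat5a, a transcription factor of IL-2 signalling, had a difference of -1.77 ± 0.19. The naive and memory list had 4 higher and 10 lower of 26, and WT levels were called different between the tables in 6 of these 14 (list median -0.16 log2). Lef1, a T cell factor, read 116, 113, 88.0 and 139 CPM in labelled Odc-/- and 20.2, 16.6 and 13.3 CPM in labelled Dohh-/-, with a difference of -2.54 ± 0.32, and Bach2, a repressor of effector genes, had -2.26 ± 0.27. Bach2 fell in each deletion, while the Odc effect of Lef1, -0.53 ± 0.21, did not pass 2-fold.

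Genes of the TH1 program were higher in difference, 12 of 27 with none lower, and WT levels were called different between the tables in 8 of the 12 (list median -0.832 log2, Dohh table minus Odc table). In the TH17 list 7 were higher and 4 lower of 26, and in the TH2 list 3 were higher (1 without Dohh-/- replicate 1) and 4 lower of 25. Ly6a, a surface antigen, read 202, 161, 255 and 134 CPM in labelled Odc-/- against 72.2, 41.1, 87.6 and 75.2 CPM in WT, and 1401, 1150 and 855 CPM in labelled Dohh-/- against 21.5, 18.8 and 17.4 CPM in WT. Its difference was 4.43 ± 0.38, with WT levels 1.84 log2 lower in the Dohh table (-1.84), and its reads could be shared with other Ly6 genes. Lag3, an inhibitory receptor, read 432, 389 and 214 CPM in labelled Dohh-/- against 92.4, 68.5 and 69.9 CPM in WT, while its Odc effect was -0.18 ± 0.36, and the difference was 2.34 ± 0.55. In the cytotoxic list, 10 genes were higher and 1 lower of 31, with called WT differences in 8 of these 11 (list median -0.679 log2). Gzmb, a granzyme, rose in both, to 3556, 1836, 2902 and 1150 CPM from 109, 48.0, 121 and 93.5 CPM with Odc loss, and to 5807, 5126 and 5990 CPM from 33.3, 16.9 and 20.2 CPM with Dohh loss, with a difference of 3.23 ± 0.60 and WT levels 1.98 log2 lower in the Dohh table (-1.98). The CD8 and gamma-delta T cell markers moved with these groups: their 11 tested genes summed to 35.0 to 80.4 CPM in the WT of the Odc table and 607 to 879 CPM in labelled Odc-/-, and to 51.7 to 87.7 CPM in WT and 1770 to 1793 CPM in labelled Dohh-/-. Of the 11, 9 were called up with each deletion, and most of the sum came from gamma and delta chain genes and Cd8a. Negative selection for CD4+ cells is meant to remove CD8+ cells, and the part of these markers' cells in the granzyme and receptor levels was not tested. The number of TH17 genes that were higher was 4 without Dohh WT replicate 3 and 12 without Odc-/- replicate 3.

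Il9, a cytokine of TH9 cells, rose with Odc loss, and its Dohh effect was not called. It read 2.05, 2.29, 2.10 and 7.10 CPM in WT and 165, 207, 200 and 214 CPM in labelled Odc-/-, while it read 5.36, 10.9 and 4.69 CPM in WT and 5.60, 5.53 and 21.2 CPM in labelled Dohh-/-. The Odc effect was 5.86 ± 0.84 and the Dohh effect 0.66 ± 0.86, giving -5.19 ± 1.19. Nr1d1, a clock repressor of the TH17 list, was opposed with a difference of -6.21 ± 0.55 and WT levels 3.5 log2 higher in the Dohh table. The chemokine receptor Ccr6 had -5.03 ± 0.70. Il17a, the cytokine that defines TH17 cells, went the other way: it read 0.108, 0, 0.350 and 0.564 CPM in WT and 2.73, 1.58, 2.58 and 0.976 CPM in labelled Odc-/-, and 0.641, 0.649 and 0.0902 CPM in WT against 79.5, 51.0 and 160 CPM in labelled Dohh-/-. Its difference was 4.80 ± 1.84, and the call was lost without Dohh-/- replicate 3, Dohh WT replicate 3, Odc-/- replicate 2 or 4 or Odc WT replicate 3 or 4. The chemokine receptor Ccr1 read 7.66, 30.9 and 62.2 CPM in labelled Dohh-/- and 6.95, 4.06, 11.6 and 2.32 CPM in labelled Odc-/-, with a difference of 3.31 ± 1.15 that was not called without Dohh-/- replicate 3, Dohh WT replicate 2 or Odc WT replicate 1 or 3. Of the 27 chemokine and receptor genes 6 were higher (3 without Dohh-/- replicate 3) and 5 lower, and of the 30 activation and coinhibitory genes 5 were higher and 5 lower.

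Of 55 cell cycle genes 42 had a higher Dohh effect and none a lower one. The Odc effect was called up in 3 and down in 11 of them, and the Dohh effect up in 27 and down in 1, where of all genes the Odc effect was up in 11.5% and down in 11.9% and the Dohh effect up in 15.9% and down in 17.3%. Their summed level was 9804 to 11398 CPM in the WT of the Odc table and 7574 to 9211 CPM in labelled Odc-/-, and 5633 to 5739 CPM in WT against 10255 to 10369 CPM in labelled Dohh-/-. The labelled Dohh-/- libraries lay within the range of the WT of the Odc table. The median WT difference of the list, Dohh table minus Odc table, was -0.901 log2, with 23 of the 42 genes called different between WT groups. Cenpe, a centromere motor, read 207, 195, 169 and 183 CPM in WT and 81.0, 83.1, 107 and 93.2 CPM in labelled Odc-/-, and 57.3, 39.4 and 54.1 CPM in WT and 96.2, 94.1 and 104 CPM in labelled Dohh-/-. Its Odc effect was -1.05 ± 0.17, its Dohh effect 0.96 ± 0.20, which did not pass 2-fold, and the difference 2.01 ± 0.26. The difference was 2.01 ± 0.23 for Bub1, a spindle checkpoint kinase, 1.90 ± 0.33 for Rrm2, a ribonucleotide reductase subunit, and 1.85 ± 0.24 for Cenpf, a kinetochore protein. WT levels of these 4 genes were lower in the Dohh table (-1.90 log2 for Cenpe, -1.69 for Bub1, -1.54 for Rrm2 and -1.74 for Cenpf).

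Of 30 genes of glycolysis and of the response to hypoxia 19 fell with Odc loss and 8 with Dohh loss. Of these, 4 (Bnip3, Egln3, Ero1l and Vegfa) are induced by hypoxia and are no glycolysis genes, and without them 15 of 26 fell with Odc loss and 6 with Dohh loss. Of all genes 11.9% fell with Odc loss and 17.3% with Dohh loss. Their summed level was 25628 to 29185 CPM in WT and 7272 to 16429 CPM in labelled Odc-/-, and 25781 to 31179 CPM in WT and 21132 to 31397 CPM in labelled Dohh-/-; the WT sums overlapped between tables. The difference was higher in 13 (11 without the 4) and lower in 3, with medians of -1.375 for the Odc effect and -0.277 for the Dohh effect. Ero1l, an oxidoreductase of the endoplasmic reticulum, read 836, 731, 811 and 521 CPM in WT and 196, 64.9, 94.0 and 70.4 CPM in labelled Odc-/-, and 197, 162 and 169 CPM in WT and 265, 167 and 145 CPM in labelled Dohh-/-. Its difference was 2.90 ± 0.59, with WT levels 2.04 log2 lower in the Dohh table (-2.04). The enolase Eno2 went the other way, from 24.0, 26 and 29.5 CPM to 1.71, 1.74 and 0.740 CPM with Dohh loss, and had a difference of -3.60 ± 0.49.

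Of 34 genes of sterol and fatty acid synthesis 15 fell with Odc loss (11.9% of all genes) and 2 with Dohh loss (17.3% of all genes), and 14 had a higher difference and none a lower one. Their summed level was 8861 to 9269 CPM in WT and 3554 to 5534 CPM in labelled Odc-/-, and 5926 to 6487 CPM in WT and 5542 to 6392 CPM in labelled Dohh-/-. WT levels were called different between the tables in 5 of the 14 (list median -0.447 log2, Dohh table minus Odc table). Scd2, a stearoyl-CoA desaturase, read 2928, 2490, 2808 and 2342 CPM in WT and 1213, 398, 871 and 554 CPM in labelled Odc-/-, against 1428, 1252 and 1456 CPM and 1220, 1201 and 1138 CPM in the Dohh table, and its difference was 1.58 ± 0.39. In the TCA cycle list, 3 of 35 were higher (8.57%, against 17.5% of all genes): Idh1 (1.99 ± 0.36), Acss2 (1.36 ± 0.39) and Acly (1.11 ± 0.24). For these 3, each labelled Odc-/- library lay below its WT. With Dohh loss Acss2 also fell, from 74.5, 83.0 and 68.4 CPM to 33.3, 24.2 and 15.8 CPM. Labelled Dohh-/- overlapped its WT for Idh1 (22.4 to 36.1 and 19.9 to 25.8 CPM) and Acly (270 to 364 and 287 to 321 CPM).

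The integrated stress response and amino acid supply list had 16 higher and 3 lower of 40 genes, including genes that moved in opposite ways. Nupr1, a stress-induced transcription regulator, rose from 14.8, 20.2, 11.9 and 35.0 CPM to 35.7, 145, 52.9 and 139 CPM with Odc loss and fell from 27.5, 41.0 and 31.1 CPM to 4.80, 6.97 and 4.97 CPM with Dohh loss, with a difference of -4.75 ± 0.69. Cth, which makes cysteine, had a difference of 2.93 ± 0.66, and Slc7a3, an amino acid transporter, 3.33 ± 0.65, with WT levels lower in the Dohh table for both (-2.03 and -2.15 log2). In the endoplasmic reticulum list, 9 of 29 were higher: Hspa5, the main chaperone, had an Odc effect of 0.75 ± 0.13, a Dohh effect of 1.97 ± 0.16 and a difference of 1.22 ± 0.20. Of 37 aminoacyl-tRNA synthetases 3 were higher (5 without Odc WT replicate 1 or 3) and none lower.

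The promoters of Slc7a11 and Nupr1 are shown because both belong to this list and hold the same letters, although their differences have opposite signs. The capitals mark TTGCATCA or its reverse complement, the core of the ATF4 and C/EBP response element, on either strand. The sequences are RefSeq's for GRCm38.p6, 250 bases before to 50 after the start, both on the minus strand.
Slc7a11 chr3:50443564-50443863: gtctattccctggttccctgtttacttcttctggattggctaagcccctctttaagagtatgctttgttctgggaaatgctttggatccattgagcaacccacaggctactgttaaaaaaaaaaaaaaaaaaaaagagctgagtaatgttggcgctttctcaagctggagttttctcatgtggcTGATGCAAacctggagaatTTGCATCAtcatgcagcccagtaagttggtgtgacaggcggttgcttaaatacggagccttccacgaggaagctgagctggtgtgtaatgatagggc
Nupr1 chr7:126625421-126625720: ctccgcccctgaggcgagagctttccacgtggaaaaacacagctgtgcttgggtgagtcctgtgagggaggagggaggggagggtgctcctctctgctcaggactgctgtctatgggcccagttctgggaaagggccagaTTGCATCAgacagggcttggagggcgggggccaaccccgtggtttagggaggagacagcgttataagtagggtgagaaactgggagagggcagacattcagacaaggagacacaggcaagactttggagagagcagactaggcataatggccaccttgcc
Of the 33 list genes with a promoter in the table, 8 held this motif (24.2%), as did 5 of the 16 with a called difference (31.2%), against 0.779% of the tested genes with a promoter and 0.895% of all 32851 promoters of the same length.

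The interferon response list had 13 higher and none lower of 36. WT levels were called different between the tables in 6 of the 13 (list median -0.553 log2, Dohh table minus Odc table). The 36 genes summed to 2597 to 2839 CPM in the WT of the Odc table and 1710 to 2365 CPM in labelled Odc-/-. In the Dohh table the sums overlapped, at 2308 to 3005 CPM in WT and 2755 to 2965 CPM in labelled Dohh-/-. Isg15, an interferon-stimulated ubiquitin-like protein, read 5.72, 6.87, 6.54 and 9.47 CPM in WT and 3.72, 2.03, 5.66 and 2.20 CPM in labelled Odc-/-, and 1.60, 4.03 and 2.80 CPM in WT and 4.80, 5.53 and 11.7 CPM in labelled Dohh-/-. It was opposed, with a difference of 2.49 ± 0.59 and WT levels lower in the Dohh table (-1.38 log2). Oas3 had a difference of 3.06 ± 0.39, from an Odc effect of -3.21 ± 0.27 and a Dohh effect of -0.16 ± 0.27. The promoter of Isg15 is shown because it holds 3 overlapping matches to GAAA, any 2 bases and GAAA again, the core of the interferon-stimulated response element. The capitals mark the run these matches cover, and both strands were searched.
Isg15 chr4:156200769-156201068: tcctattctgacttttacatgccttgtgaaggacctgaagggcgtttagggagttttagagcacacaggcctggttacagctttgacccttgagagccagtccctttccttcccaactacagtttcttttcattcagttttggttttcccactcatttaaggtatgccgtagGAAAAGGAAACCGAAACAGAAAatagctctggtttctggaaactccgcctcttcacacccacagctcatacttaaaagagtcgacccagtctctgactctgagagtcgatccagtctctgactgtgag
The motif was held by 16 of 26 list promoters (61.5%), by 5 of the 9 with a called difference (55.6%) and by 3.79% of tested genes with a promoter. For the cell cycle list, 18 of 46 promoters (39.1%) held TTTGAA, and 15 of the 35 with a called difference (42.9%), compared with 14.4% of tested genes. TTTNNCGC was held by 13 of the 46 (28.3%) and 8 of the 35 (22.9%), compared with 9.72%. In the list of glycolysis and hypoxia-induced genes 18 of 28 (64.3%) held ACGTG, the core of the hypoxia response element, but 6 of the 15 with a called difference (40%), compared with 29.6%. In the sterol and fatty acid synthesis list 1 of 24 (4.17%) held CACCCCAC, the core of the sterol response element, compared with 3.76%. These matches are descriptions of the letters only.

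Of 29 p53 targets 6 were lower and none higher, led by Phlda3 (-2.50 ± 0.40), whose WT levels were 1.17 log2 higher in the Dohh table. Of 78 cytosolic ribosomal protein genes 15 were lower and none higher, a share of 19.2%, near that of all genes. WT levels were called different between the tables in 14 of the 15 (list median 1.179 log2, Dohh table minus Odc table). The summed level of the 78 genes was 68213 to 80846 CPM in the WT of the Odc table, 85505 to 107107 CPM in labelled Odc-/-, 141400, 203512 and 146246 CPM in the other WT and 113322 to 133867 CPM in labelled Dohh-/-. The number that were lower ranged widely when 1 library was left out: 2 without Dohh WT replicate 2, which had the highest sum, 5 without Odc-/- replicate 3, 8 without Dohh-/- replicate 2, Odc-/- replicate 4 or Odc WT replicate 4, 25 without Dohh WT replicate 3, 26 without Dohh-/- replicate 1 and 28 without Dohh WT replicate 1. Of 80 nuclear-encoded respiratory chain genes 0 were called (2 without Odc-/- replicate 3), and of 76 mitochondrial ribosomal protein genes 1 was higher and 1 lower (0 lower without Dohh-/- replicate 1 or 2, Dohh WT replicate 2, Odc-/- replicate 3 or Odc WT replicate 1 or 3). Of 8 mitochondrially encoded messenger RNAs 3 were lower (1 without Dohh-/- replicate 1, Odc-/- replicate 2 or Odc WT replicate 2), and labelled Odc-/- was also the group with the highest mitochondrial share of counts. Of the 34 histone acetyltransferase and deacetylase genes 2 were higher (1 without Dohh-/- replicate 3 or Dohh WT replicate 2) and 1 lower (0 without Dohh-/- replicate 2 or 3 or Odc WT replicate 4, and 2 without Dohh-/- replicate 1, Dohh WT replicate 2 or Odc-/- replicate 3). The acetyltransferase Hat1 (1.25 ± 0.26) kept its call with each library left out.

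Markers of other cells moved with the labelled Dohh-/- and labelled Odc-/- groups. The 11 tested myeloid markers summed to 22.8 to 53.6 CPM in the WT of the Odc table, 144 to 798 CPM in labelled Odc-/-, 30.8 to 34.7 CPM in the other WT and 389, 4595 and 5243 CPM in labelled Dohh-/-, where replicate 1 was the lowest. Most of the mean labelled Dohh-/- sum of 3409 CPM came from Lyz2 (1545 CPM), S100a9 (893 CPM) and S100a8 (648 CPM). The differences of S100a8 and S100a9 were not called. With Odc loss 9 of the 11 markers were called up, and with Dohh loss 11. Of these 11, 4 were called higher and none lower, and the count was 2 without Dohh-/- replicate 2 or 3, Dohh WT replicate 2 or 3, Odc-/- replicate 1, 2 or 4 or Odc WT replicate 1 or 3. Among them Mpo was the marker at 0 in the WT of the Dohh table. The defining markers Adgre1, Itgam and the C1q genes were not among the tested genes. The negative selection at isolation is meant to remove such cells, and the part of any that remained in the differences of Il1b, Cd14 and the other myeloid genes was not tested. The 14 basophil and mast cell markers summed to 80.8 to 149 CPM in the WT of the Odc table, 317 to 734 CPM in labelled Odc-/-, 263 to 325 CPM in the other WT and 1018, 2578 and 2573 CPM in labelled Dohh-/-, and 12 of them were called up with Odc loss and 13 with Dohh loss. Cyp11a1 made up most of the Dohh WT sum and fell with Dohh loss, and without it the sums were 31.2 to 53.8, 147 to 601, 18.8 to 31.8 and 993, 2545 and 2539 CPM in these groups. The 14 B cell markers summed to 429 to 657, 834 to 1699, 590 to 654 and 899, 2544 and 2423 CPM in the same groups, and 11 and 7 were called up. Of the differences, basophil and mast cell markers had 2 higher (6 under limma-trend or the replicate block) and 1 lower, B cell markers 0 higher (1 without Dohh-/- replicate 1, Odc-/- replicate 1 or 3 or Odc WT replicate 4) and 3 lower of 14 (1 lower without Odc-/- replicate 1), erythroid and platelet markers 2 higher of 4 (1 without Dohh-/- replicate 3, any Dohh WT replicate, Odc-/- replicate 1, 2 or 4 or Odc WT replicate 1 or 3), and CD8 and gamma-delta T cell markers 1 higher of 11, Tcrg-C2. Group means of Cd8a went from 14.9 to 155 CPM with Odc loss and from 8.74 to 247 CPM with Dohh loss, whereas those of Cd8b1, the other CD8 chain gene, went from 11.3 to 15.7 CPM and from 15.6 to 14.9 CPM. Those of Trdc, the delta chain gene, went from 10.2 to 196 CPM and from 22.0 to 606 CPM. Mcpt1, a mast cell protease that could share reads with related proteases, read 46.8, 96.7, 254 and 75.3 CPM in labelled Odc-/- and 563, 1466 and 1402 CPM in labelled Dohh-/-, with a difference of 3.09 ± 0.97.

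Of 18 T cell identity genes 5 were lower and 1 higher. Cd4, the coreceptor that marks these cells, read 1052, 790, 1032 and 490 CPM in WT and 651, 384, 387 and 501 CPM in labelled Odc-/-, and 1006, 1035 and 963 CPM in WT against 43.3, 42.4 and 29.8 CPM in labelled Dohh-/-. Its difference was -3.89 ± 0.36, while the CD3 subunits Cd3e, Cd3d and Cd3g were not called. Trac, the T cell receptor alpha chain gene, went from a mean of 481 to 229 CPM with Odc loss and from 512 to 99.6 CPM with Dohh loss, with a difference of -1.29 ± 0.27. The adhesion molecule Cd2 had -1.12 ± 0.29, and the beta chain genes Trbc1 and Trbc2 (-0.45 and -0.41) were not called. Cd5, an inhibitory coreceptor, had -2.99 ± 0.29 and Cd6 -2.13 ± 0.25, and Thy1 had 1.22 ± 0.21.

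**Figure D4:**
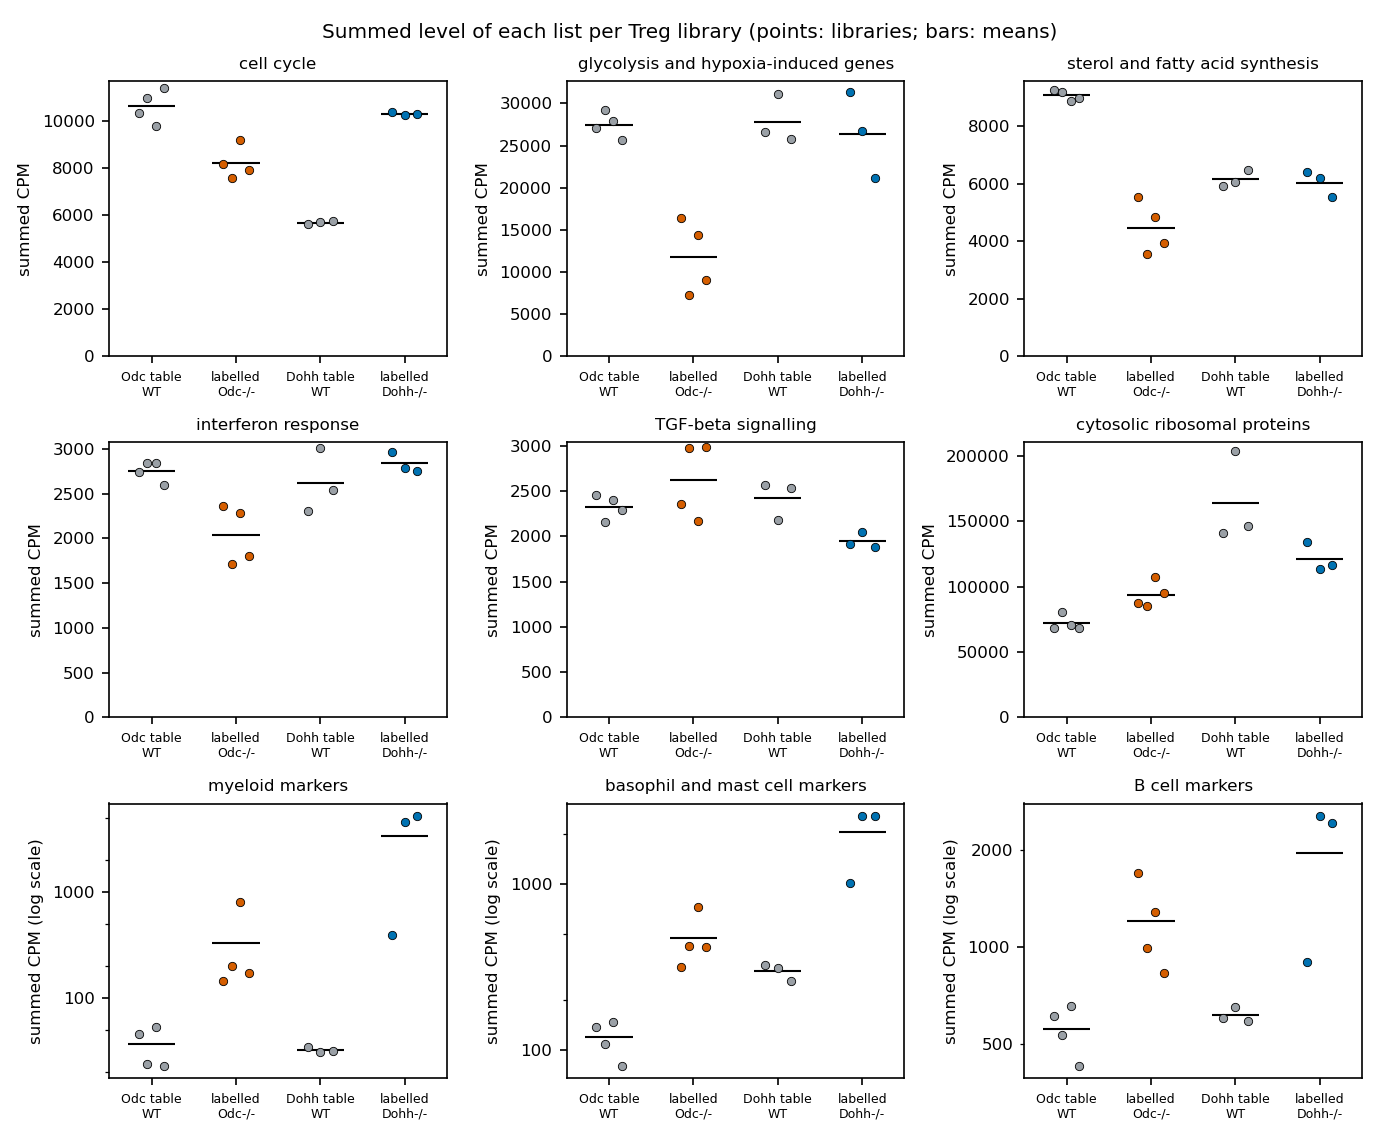
Summed CPM of the tested genes of 9 lists in each Treg library (points) with group means (bars); the bottom row is on a log scale. The sums of glycolysis and hypoxia-induced genes in labelled Odc-/- (7272 to 16429 CPM) lie below all others, and the myeloid sum of labelled Dohh-/- replicate 1 (389 CPM) lies below those of replicates 2 and 3.

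The same difference of effects was compared in the other subsets, which use other libraries. These are not independent of the Treg libraries, since same-numbered libraries of a genotype deviated together across subsets (r of -0.107 to 0.632 over genes, over 0.1 in 37 of 41 pairs). In TH17 it was called in 14% of genes, in TH1 in 11.3% and in TH2 in 10.3%. Of the 2261 genes of Treg, 866 were also called in TH17 (38.3% of the Treg genes, 48% of the TH17 genes), 851 of them in the same direction. In TH1, 627 were shared (27.7% and 42.9%), 604 in the same direction, and in TH2, 558 (24.7% and 42%), 520 in the same direction. Of the 120 opposed genes, 62 were called in TH17, 61 of them in the same direction as in Treg, 35 in TH1 (33 in the same direction) and 36 in TH2 (31 in the same direction). In all 4 subsets 191 genes were called, 186 in 1 direction, and 975 Treg genes were called in no other subset. Tmie had a difference of -3.84 in TH17, -4.16 in TH1 and -3.56 in TH2, and Nrp1 had -3.19, -2.95 and -2.75, so both had lower Dohh effects throughout. Bnip3 had 0.04 in TH17, 1.93 in TH1 and 1.67 in TH2.

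The Treg difference was also tested against the mean difference of the other 3 subsets. It was higher in 285 genes and lower in 395, together 5.26% of genes, and in 403 and 519 with a replicate block within table and genotype. This contrast contains the same Treg values, so that the overlap with the 2261 is not read as support. Named genes with such a call included Nrp1 (-2.42), Smad6 (-4.75), Nupr1 (-4.56) and Oas3 (2.23).

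**Figure D5:**
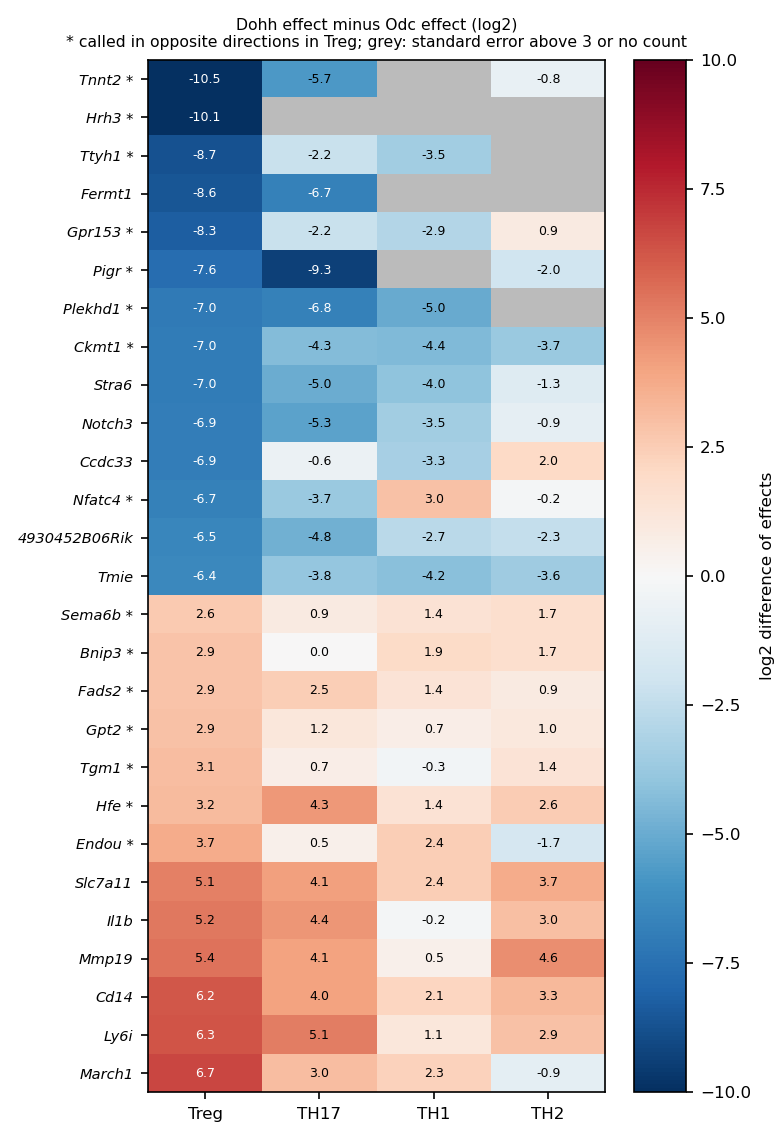
Difference of effects (log2, Dohh minus Odc) of 27 named genes in Treg, TH17, TH1 and TH2 cultures; red is a higher and blue a lower Dohh effect, and grey cells had a standard error above 3 or no count. Ckmt1, Stra6, Notch3, 4930452B06Rik and Tmie are below 0 in all 4 subsets, while Ccdc33 and Nfatc4 are among those that change sign between subsets.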

How the data were processed

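The authors sequenced TruSeq stranded mRNA libraries on an Illumina HiSeq; the submitters' processing notes name STAR, featureCounts, DESeq2, deepTools and mm10. The values are the raw read counts per gene deposited by the authors, 1 table per deletion, listing 47937 genes each. Tool versions, the annotation release and the strand setting of the counting are not given in the sources used here. All 55 count columns were used and 0 were left out. A sample of the series without a column (1 of 56) was not analysed here.

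Both tables were joined and fitted together in edgeR 4.0.16 (R 4.3.3; limma 3.58.1 and DESeq2 1.42.0 for alternatives): a low-count filter leaving 12924 genes, TMM scaling over both tables, 16 group means and a quasi-likelihood test of each contrast, with Benjamini-Hochberg adjustment over all genes tested. Library sizes are sums over the genes kept. Of 288 genes with 500 or more counts in 1 table and 5 or fewer in the other, 0 passed this filter. The scripts were tested on simulated data, where estimates were unbiased, large differences were mostly called and differences not far above the 2-fold threshold were often missed; the criterion for passing this test was set after its first run. Annotation was GENCODE for GRCm38, which held 47224 of the genes.

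The members and gene lists were chosen with earlier results of these data known. Named genes are protein coding and are (1) Odc1, Dohh, Dhps, Eif5a and Foxp3; (2) the 8 opposed genes with the largest difference in each direction; (3) the 6 largest other genes in each direction, where (2) and (3) need a mean of 5 CPM in a Treg group and a call kept with each of the 14 Treg libraries left out; and (4) up to 4 called genes of each list. Depth was 7430483 to 12576933 counts per Treg library; counting intervals and floors (3 counts) cover counting error only. Replicates of a group differed by more than sampling noise (chi-square per degree of freedom 2.65 to 43.84), so none were merged. The promoters come from RefSeq (GRCm38.p6). Not every gene that the rule named is described, and a few items are not reported here.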

Additional observations from a re-analysis of the deposited data

Results flagged for a closer look

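Single libraries stood apart from the rest of their group in 10 of 197 groups of 4 looked at, where chance gives about 1 in 20. Gpt2 was highest at 9.68 CPM in labelled Odc-/- replicate 1, and Nfatc4 was highest at 5.75 CPM in Odc WT replicate 4. Il9 was highest at 7.1 CPM in Odc WT replicate 4, and Cxcr5 was lowest at 15.1 CPM in labelled Odc-/- replicate 3. Il7r was highest at 56.9 CPM in labelled Odc-/- replicate 1, and Sdf2l1 was highest at 53.7 CPM in Odc WT replicate 4. Plk2 was lowest at 9.84 CPM in labelled Odc-/- replicate 3, and Lyz2 was highest at 275 CPM in labelled Odc-/- replicate 3. Fcmr was highest at 20 CPM in labelled Odc-/- replicate 1, and Itga2b was highest at 16.5 CPM in labelled Odc-/- replicate 3. The same libraries recur, so these flags are not independent of each other.

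For 29 named genes the difference of effects in Treg was itself called different from the mean difference of the TH1, TH2 and TH17 cultures by edgeR's quasi-likelihood test, on the log2 scale. It was higher in Treg for Endou (3.26), Tgm1 (2.51), Gpt2 (1.94), Ly6a (2.97), Cenpe (1.37), Bub1 (1.48), Cenpf (1.38), Oas3 (2.23) and Elovl6 (1.36). It was lower in Treg for Gpr153 (-6.85), Stra6 (-3.6), Ccdc33 (-6.29), 4930452B06Rik (-3.26), Tmie (-2.57), Nrp1 (-2.42), Ccr8 (-2.43), Il17rb (-5.2), Nr1d1 (-3.93) and Lef1 (-1.29). Ccdc33 had 0 counts in labelled Dohh-/- Treg, so its fitted value depends on a prior count and is no bound. Further genes lower in Treg were Smad6 (-4.75), Smurf1 (-1.37), Azin2 (-1.55), Nupr1 (-4.56), Eno2 (-2.51), Cyp11a1 (-4.21), Rps19 (-1.07), Rps12 (-1.2), Rps27 (-1.0) and Rpl37a (-1.07). The number of calls for the ribosomal protein genes among these changes with single libraries, as given above.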

How the results depend on the processing

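The number of genes with a higher Dohh effect, 1059, a lower one, 1202, and opposed calls, 120, stayed within 1.5 times of these under other size factors, without TMM, under DESeq2, limma-trend, separate fits of the tables, a fit of the Treg libraries alone and no low-count filter. A mean count of at least 50 gave 774 lower and 48 opposed genes. Testing against the 2-fold change itself (glmTreat) gave 202 higher, 450 lower and 23 opposed, and the adjusted p alone, without a fold threshold, 1902, 1958 and 534. Restricting to genes whose WT levels were not called different between the tables, an alternative chosen after seeing the data, gave 653 higher and 50 opposed. With 1 Treg library left out, the counts ranged from 967 to 1273, 1046 to 1178 and 104 to 135, and for the Treg difference against the other subsets from 216 to 338 higher and 309 to 381 lower.

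Replicate numbers are shared between groups, but deviations of same-numbered WT and knockout Treg libraries correlated at over 0.1 in 1 of 7 pairs, so the numbers were not taken as pairs. Across subsets, same-numbered libraries of a genotype did so in 37 of 41 pairs, and the block for that contrast is given next. A replicate block within each table gave 1120 higher, 1250 lower and 122 opposed genes, and a block within table and genotype 403 higher and 519 lower for the Treg difference against the other subsets. Of the 120 named genes with a called difference, 71 kept it under glmTreat, 104 at an adjusted p below 0.01, 113 under limma-trend, 119 under the replicate block and 108 to 118 with 1 library left out. No named gene changed direction under these. Genes below about 1 CPM are limited by depth, since 3 counts correspond to 0.240 to 0.390 CPM in these libraries.

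Among the gene lists, these counts moved by over 1.5 times under other settings with all libraries. Under limma-trend 17 cytotoxic genes, 6 basophil and mast cell markers and 3 CD8 and gamma-delta T cell markers were higher and 5 B cell markers lower. Under DESeq2 5 B cell markers were lower. Separate fits gave 11 TH17 genes higher and 6 B cell markers lower. The fit of the Treg libraries alone gave 2 naive and memory genes and 2 myeloid markers higher, and 2 deacetylase list genes and 23 ribosomal protein genes lower. Without the low-count filter 2 myeloid markers and 1 erythroid and platelet marker were higher and 9 ribosomal protein genes lower. A mean count of at least 50 gave 2 TH2 genes lower, 2 myeloid markers, 1 basophil and mast cell marker and 1 erythroid and platelet marker higher, and 0 deacetylase list genes lower. Without TMM 2 deacetylase list genes were lower. The 1 higher TGF-β gene became 0 without TMM, under limma-trend and without the low-count filter. The replicate block gave 6 basophil and mast cell markers and 1 B cell marker higher. The 2 higher polyamine genes became 1 or 0 in 8 of the settings, and the 2 lower became 1 in 3.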

Other observations

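A set of 3 neighbouring genes of chromosome 9 had a lower Dohh effect and was noticed after their values were seen. Cyp11a1 (GRCm38, chr9:58006411-58027023, plus strand), a steroid synthesis enzyme of mast cells and of some T cells, Ccdc33 (chr9:58028677-58118823, minus strand) and Stra6 (chr9:58063788-58153996, plus strand) lie next to each other, and the spans of Ccdc33 and Stra6 overlap on opposite strands. Cyp11a1 read 293, 297 and 235 CPM in WT and 24.3, 33.5 and 33.9 CPM in labelled Dohh-/-, while it read 92.4, 78.8, 95.2 and 48.6 CPM in WT and 169, 173, 133 and 209 CPM in labelled Odc-/-. It was opposed, with a difference of -4.29 ± 0.49 and WT levels 1.80 log2 higher in the Dohh table, whereas the Odc effect of Ccdc33 was -2.23 ± 0.45 and that of Stra6 -1.47 ± 0.36. All 3 had a called Treg difference against the other subsets. No exon of Stra6 overlaps another gene's exon, while 13.74% of Ccdc33's exon length overlaps another gene.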
